A study of Homo sapiens with 7 samples.

Results

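The p53 target genes studied here are 33 genes reported to be activated by the transcription factor p53, taken by symbol from a list and not by a rule on their values. All 33 were present among 14535 genes, one of them under its older symbol C12orf5 (TIGAR), and 32 had enough counts to be tested among 11230 genes. Gene expression was measured in A549, a human lung adenocarcinoma cell line with wild-type p53. The cells behind 4 libraries (replicates 4 to 7) came from 24 h of cyclic stretch, with 15 cycles per min and an elongation of 15%. Those of 3 libraries (replicates 1 to 3) had spent 24 h in 100 nM doxorubicin, a drug that traps topoisomerase II on broken DNA. In both groups the cells were stained for β-galactosidase, a marker of senescence, after 6 days, and RNA came from sorted positive cells. No untreated cells were analysed here, so a level can be set only against the other treatment and not against a resting state. Whether the replicates are separate cultures is not given in the labels, and a p-value therefore reflects only how these libraries vary, which may be technical. In RNA from pooled cells, fewer cells that express a gene and less RNA per cell cannot be told apart.

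p53 is kept low in unstressed cells by the ubiquitin ligase MDM2 and by MDM4. DNA damage activates the kinases ATM, ATR, CHEK1 and CHEK2, which free p53 from MDM2, and p53 then binds response elements made of a pair of half-sites near its targets. The targets feed back on p53, stop the cell cycle, repair DNA, change metabolism or promote cell death, and lasting p53 activity is one route by which doxorubicin makes lung cancer cells senescent.

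Promoter windows of 300 bases, each from 250 before to 50 after a gene start, were taken from RefSeq (GRCh38.p14) for 26 of the 33 genes. ASCC3, CMBL, FBXO22, GADD45A, PHLDA3, RRM2B and TP53INP1 had no window. The p53 response element was searched as 2 half-sites of 10 bases with a spacer of 0 or 1 base, at most 2 mismatches in all, and the central C and G of each half-site kept. The half-site is its own reverse complement as a pattern, so both strands give the same matches. A match stood in a window of 3 of the 26 genes (11.5%), against 184 of 27305 genes with a window (0.674%). Exact single half-sites stood in 5 of the 26 (19.2%), against 8.06% of all genes, and a single half-site may lie inside a full match. The 3 windows with a full match are shown because they hold the element that p53 is known to bind. Capitals mark the half-sites of the match with the fewest mismatches in each window.
MDM2, chr12:68808767-68809066, + strand: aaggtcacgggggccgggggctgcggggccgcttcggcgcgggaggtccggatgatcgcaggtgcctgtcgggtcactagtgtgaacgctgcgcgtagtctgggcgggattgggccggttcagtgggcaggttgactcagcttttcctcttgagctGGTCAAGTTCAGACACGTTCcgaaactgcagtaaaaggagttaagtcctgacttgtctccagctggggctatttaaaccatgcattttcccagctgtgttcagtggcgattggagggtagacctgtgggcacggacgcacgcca
DDB2, chr11:47214724-47215023, + strand: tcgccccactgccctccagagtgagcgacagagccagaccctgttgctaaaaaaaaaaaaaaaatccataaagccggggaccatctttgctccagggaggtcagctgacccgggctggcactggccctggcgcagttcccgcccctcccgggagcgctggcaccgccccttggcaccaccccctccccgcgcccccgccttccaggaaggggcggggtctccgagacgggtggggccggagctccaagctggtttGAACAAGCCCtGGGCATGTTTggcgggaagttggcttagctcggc
AEN, chr15:88621090-88621389, + strand: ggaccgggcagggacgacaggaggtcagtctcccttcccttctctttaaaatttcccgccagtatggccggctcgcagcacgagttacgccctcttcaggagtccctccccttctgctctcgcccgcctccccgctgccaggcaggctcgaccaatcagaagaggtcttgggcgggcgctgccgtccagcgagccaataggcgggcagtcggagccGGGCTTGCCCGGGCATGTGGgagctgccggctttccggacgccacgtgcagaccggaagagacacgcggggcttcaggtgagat
The DDB2 window shown held 2 full matches, of which only the better is in capitals. That match had 0 mismatches, with a spacer of 1 base between its half-sites, and began at base 6 of its transcript. The window of another start listed for DDB2 held no match. The MDM2 match had 2 mismatches and no spacer, and began 94 bases before the start of its transcript, one of several starts listed for the gene. The AEN match had 2 mismatches and began 34 bases before the start. Half-sites without a full match were GGGCTTGCCC in FDXR, AGACTTGCTT in PLK2 and GGACAAGTCT in SESN1. For FDXR and SESN1 the windows of other listed starts held no half-site. A match is a description of letters and not a measured binding site, and many response elements known for this pathway lie in introns or farther upstream than these windows reach.

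Total counts were 5636494 to 7419798 in the stretch libraries and 2611766 to 4644650 in the doxorubicin libraries. EIF4A2 alone took 1.67% to 2.87% of counts in the stretch libraries, and 16.1%, 30.6% and 10.8% in doxorubicin libraries 1, 2 and 3. Its share was thus higher in every doxorubicin library, library 3 included, than in any stretch library. Over all tested genes the Pearson correlation of log2 CPM with the stretch libraries was 0.847 to 0.879 for doxorubicin library 1. It was 0.724 to 0.769 for library 2 and 0.915 to 0.941 for library 3. The limit of detection was set at 3 counts, which is 0.321 to 0.401 CPM (counts scaled to 1e+06 per library) in the stretch libraries, and 1.19, 2.59 and 0.567 CPM in doxorubicin libraries 1, 2 and 3. Of 14 markers of A549 cells and lung epithelium, 12 were above 3 counts in every library, and the summed level of the list was 9087 to 10582 CPM in stretch and 9319 to 13154 CPM in doxorubicin. EPCAM was an exception, with 88 to 135 counts in stretch and 11, 1 and 24 in doxorubicin. So was AKR1C2, with 0 to 3 counts in stretch and 0 to 6 in doxorubicin. Of the 13 tested markers of this list, 7 lay on the stretch side and 6 on the doxorubicin side. INSL4 was 4.59-fold higher in stretch and KRT18 4.60-fold higher in doxorubicin, with adjusted p of 0.0336 and 0.0199 by edgeR, and no other marker of the list passed 0.05. The lists for other cells had lower sums. The 6 of 9 fibroblast markers in the table summed to 15.5 to 16.8 CPM in stretch and 18.7 to 44.96 CPM in doxorubicin, and the 5 of 9 leukocyte markers to 59.1 to 61.8 CPM in stretch and 101.9 to 143 CPM in doxorubicin. CDH5 was the endothelial marker in the table (1 of 7), at 0 to 0.963 CPM in stretch and 0 in doxorubicin. The part of these differences in the results was not tested.

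Among the 32 tested p53 targets studied here, no single gene differed between stretch and doxorubicin at the threshold used. With p adjusted over all tested genes (edgeR's quasi-likelihood test, Benjamini-Hochberg), 0 of the 32 tested genes passed an adjusted p of 0.05, where 2.32% of all tested genes did, 0.356% higher in stretch and 1.97% higher in doxorubicin. At an unadjusted p under 0.05 there were 10 (31.2%), against 23.2% of all genes. DESeq2 called 3, with 10% of all genes called, and limma-voom 0. In counts simulated from these libraries the test recovered 2.04% of 2-fold and 68.0% of 4-fold differences, and only CES2, SPATA18, CYFIP2, ASCC3, C12orf5, SERTAD1 and GDF15 had a fitted difference of over 2-fold. The absence of calls is therefore no sign that the 2 treatments left these genes alike. The median log2 fold change (stretch minus doxorubicin) was -0.23, against 0.02 over all tested genes. A total of 11 genes lay on the stretch side and 21 on the doxorubicin side, where all genes were split 51.2% on the stretch side and 48.8% on the doxorubicin side. With library totals alone, which shifted the median of all genes to 0.71, the median was 0.51 and 4 genes lay on the doxorubicin side. Relative to that shift the median was -0.20, so it stayed on the doxorubicin side of all genes. Without doxorubicin libraries 1 and 2 the lean turned, as the median was 0.26 and 12 genes lay on that side.

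**Figure D1:**
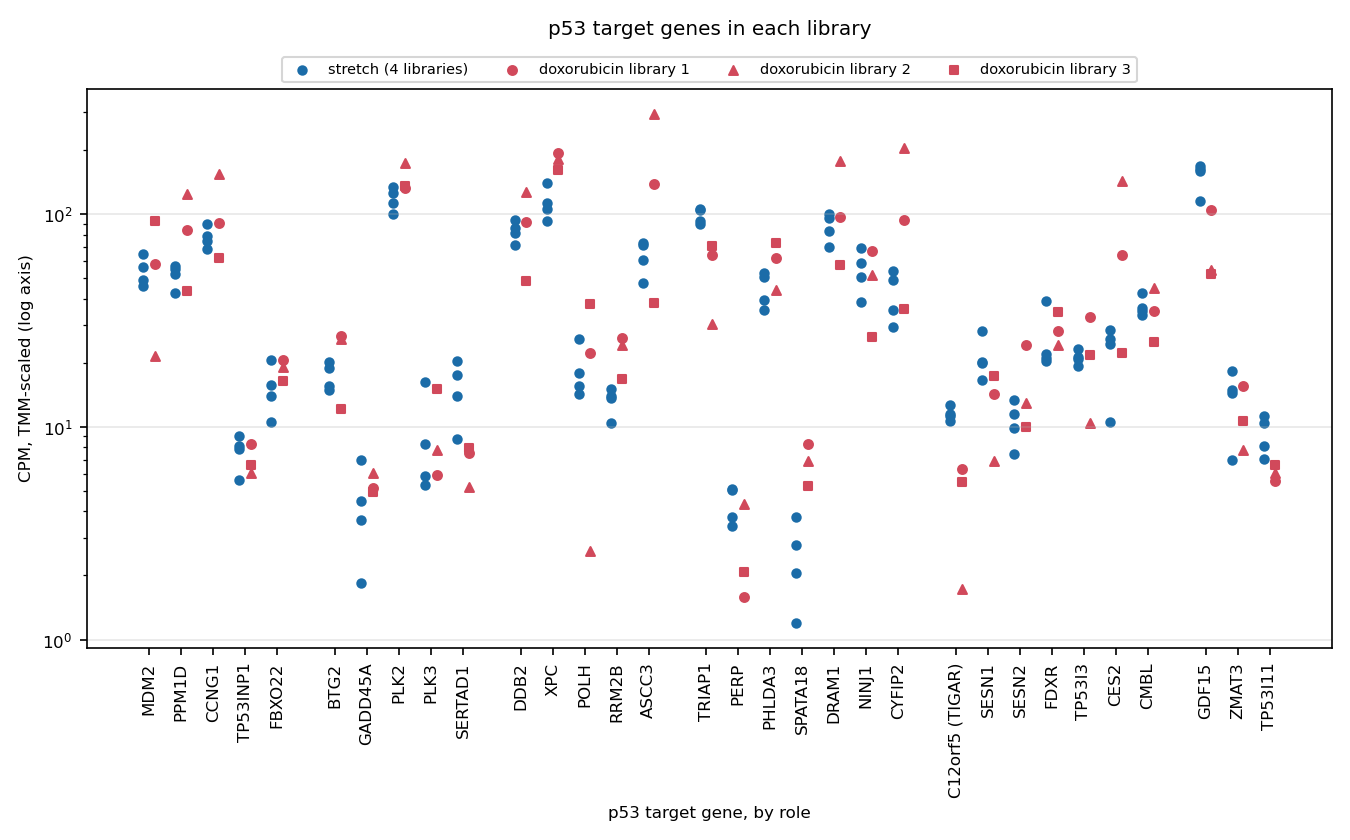
CPM of the 32 tested p53 target genes, on a log axis, in the 4 stretch libraries (blue) and in doxorubicin libraries 1 (red circle), 2 (triangle) and 3 (square), with genes grouped by role. The median ratio of the highest to the lowest library of a gene was 1.51 within stretch and 2.37 within doxorubicin.

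For 8 genes the stretch and doxorubicin ranges lay apart. GDF15, SERTAD1, TRIAP1, C12orf5 and TP53I11 were above doxorubicin in each stretch library (15.6% of the tested genes, against 11.5% of all genes). XPC, RRM2B and SPATA18 were above stretch in each doxorubicin library (9.38%, against 9.88% of all genes). Over both directions 21.4% of all genes had ranges that lay apart.

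The genes that feed back on p53 showed no called difference, and 4 of 5 lay on the doxorubicin side, with a median log2 fold change of -0.29 (with library totals alone all 5 lay on the stretch side, and 4 of 5 were below the median of all genes, as with TMM factors). With doxorubicin libraries 1 and 2 left out the median was 0.23, and 3 of 5 lay on the stretch side. MDM2, the ubiquitin ligase that degrades p53 (GRCh38, as for all gene positions given here: chromosome 12, 68808176 to 68850686), stood at 48.7, 46.1, 65.1 and 56.2 CPM in stretch libraries 4 to 7, and at 58.4, 21.6 and 93.0 CPM in doxorubicin libraries 1 to 3. The doxorubicin libraries lay on both sides of the stretch range, with library 2 below and library 3 above it. The log2 fold change was -0.12 (SE 0.42), with an adjusted p of 0.886 by edgeR. It was 0.42 without doxorubicin library 3, and -0.77 against doxorubicin library 3 alone. PPM1D, the phosphatase that removes activating phosphates from p53 and its kinases (chromosome 17, 60600183 to 60666280), stood at 42.5, 57.2, 55.1 and 52.3 CPM in stretch, and at 83.8, 124 and 43.5 CPM in doxorubicin (log2 fold change -0.68, SE 0.36). Doxorubicin libraries 1 and 2 were above every stretch library and library 3 was within their range. CCNG1, cyclin G1, which brings a phosphatase to MDM2, had the same order, at 74.4, 68.2, 90.2 and 78.5 CPM in stretch and 90.5, 154 and 62.2 CPM in doxorubicin. Its library 3 lay below the stretch range. TP53INP1, which promotes phosphorylation of p53, averaged 7.67 ± 1.46 CPM in stretch and 7.003 ± 1.19 CPM in doxorubicin (SD, n = 4 and n = 3), and FBXO22, a substrate receptor of a ubiquitin ligase, averaged 15.2 ± 4.25 and 18.7 ± 2.12 CPM in the same order of groups.

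Among the genes of growth arrest and the polo-like kinases, SERTAD1 was on the stretch side and the other 4 on the doxorubicin side, with a median of -0.28 and no call (all 5 were on the stretch side with library totals alone, where 4 of 5 stayed below the median of all genes). With doxorubicin libraries 1 and 2 left out the median was -0.18, and 3 of 5 lay on the doxorubicin side. SERTAD1, a regulator of CDK4 and E2F activity (chromosome 19, 40421592 to 40426025), stood at 20.3, 17.4, 8.76 and 13.9 CPM in stretch and at 7.55, 5.19 and 7.94 CPM in doxorubicin. The ranges did not overlap, although stretch library 6 came near the doxorubicin values. The log2 fold change was 1.08 (SE 0.39), with an adjusted p of 0.137 by edgeR, and it was 0.94 against doxorubicin library 3 alone. PLK2, a polo-like kinase induced by stress (chromosome 5, 58453982 to 58460260), stood at 134, 112, 126 and 99.9 CPM in stretch and at 132, 174 and 135 CPM in doxorubicin. The groups overlapped, with a log2 fold change of -0.31 (SE 0.28). BTG2, an antiproliferative gene that slows the G1 phase (chromosome 1, 203305491 to 203309602), stood at 15.0, 15.6, 18.9 and 20.2 CPM in stretch and at 26.6, 25.9 and 12.1 CPM in doxorubicin. Doxorubicin library 3 was below all stretch libraries and the other doxorubicin libraries above them. PLK3 was highest in stretch library 4 and doxorubicin library 3, at 16.2 and 15.1 CPM, against 5.30 to 8.28 CPM in the other stretch libraries and 5.96 and 7.78 CPM in doxorubicin libraries 1 and 2. GADD45A, a stress sensor, was weakly measured, at 1.84 to 6.94 CPM in stretch and 4.91 to 6.05 CPM in doxorubicin.

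The genes of DNA repair and nucleotide supply all lay on the doxorubicin side, 5 of 5 with a median of -0.66, and none passed the test. With upper-quartile factors 4 of 5, with library totals alone 1 of 5, and without doxorubicin libraries 1 and 2 3 of 5 lay there. Relative to the median of all genes, 4 of 5 lay below it with library totals alone. XPC, which recognises distorted DNA in nucleotide excision repair (chromosome 3, 14145147 to 14178783), stood at 139, 113, 106 and 93.1 CPM in stretch and at 194, 181 and 161 CPM in doxorubicin. Each doxorubicin library was above each stretch library. Its log2 fold change was -0.66 (SE 0.28), with an adjusted p of 0.184 by edgeR, and -0.50 against doxorubicin library 3 alone. RRM2B, the p53-inducible small subunit of ribonucleotide reductase (chromosome 8, 102204502 to 102239118), stood at 13.6, 15.0, 10.4 and 14.0 CPM in stretch and at 26.2, 24.2 and 16.8 CPM in doxorubicin. The groups did not overlap, with a log2 fold change of -0.75 (SE 0.31), an adjusted p of 0.183 by edgeR, and -0.33 against doxorubicin library 3 alone. DDB2, the damage-binding partner of XPC whose window above held the response element with 0 mismatches (chromosome 11, 47214465 to 47239240), stood at 85.6, 81.5, 93.3 and 71.4 CPM in stretch and at 91.3, 126 and 48.2 CPM in doxorubicin. The doxorubicin values lay around the stretch range on both sides, and the log2 fold change was -0.08 (SE 0.34). ASCC3, a helicase of alkylation repair (chromosome 6, 100508194 to 100881372), stood at 47.5, 72.9, 71.8 and 60.9 CPM in stretch and at 138, 295 and 38.0 CPM in doxorubicin. Its log2 fold change of -1.30 (SE 0.53) was carried by doxorubicin libraries 1 and 2 and was 0.75 against library 3 alone. POLH, the polymerase that copies past DNA lesions, stood at 14.2 to 25.8 CPM in stretch and at 22.2, 2.59 and 37.8 CPM in doxorubicin, where the value of library 2 is 3 counts and so at the limit of detection.

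**Figure D2:**
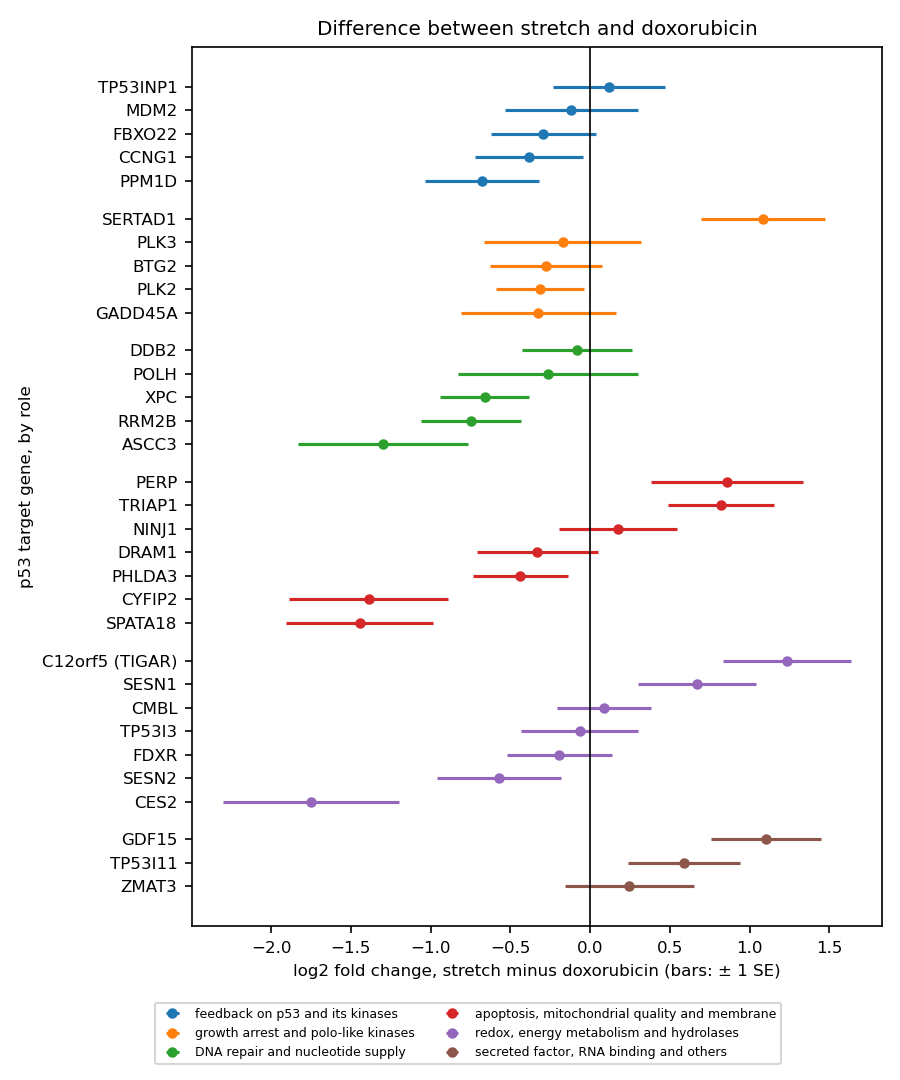
log2 fold change (stretch minus doxorubicin) of the 32 tested p53 target genes with bars of 1 standard error, coloured by role. CES2, at -1.75, and C12orf5 (TIGAR), at 1.23, mark the ends, and all 5 repair genes lie left of 0 (4 of 5 with upper-quartile factors and 1 of 5 with library totals alone).

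The genes of apoptosis, mitochondrial quality and the cell membrane were divided. Of 7 tested, 3 lay on the stretch side and 4 on the doxorubicin side (5 and 2 with library totals alone, where 4 of 7 were below the median of all genes, as with TMM factors), with no call. The median was -0.33 with all libraries and 0.19 without doxorubicin library 2. With doxorubicin libraries 1 and 2 left out it was 0.49, and 5 of 7 lay on the stretch side. TRIAP1, an inhibitor of apoptosis that carries phospholipids in mitochondria (chromosome 12, 120443961 to 120446412), stood at 89.98, 105, 104 and 93.2 CPM in stretch and at 64.3, 30.3 and 70.5 CPM in doxorubicin. The ranges did not overlap, and the log2 fold change was 0.82 (SE 0.33, adjusted p of 0.174 by edgeR) with all libraries and 0.49 against doxorubicin library 3 alone. SPATA18, also called Mieap, a factor of mitochondrial quality control (chromosome 4, 52051331 to 52097292), stood at 1.20, 2.78, 2.05 and 3.77 CPM in stretch and at 8.34, 6.92 and 5.29 CPM in doxorubicin. Each doxorubicin library was above each stretch library, with 9 to 35 counts in stretch and 8 to 28 in doxorubicin. Its log2 fold change was -1.45 (SE 0.46), with an adjusted p of 0.106 by edgeR, and it was negative in each of the 15 alternatives that kept the gene, from -1.73 to -0.70. CYFIP2, an actin regulator with a reported part in apoptosis (chromosome 5, 157266079 to 157395595), stood at 29.5, 54.2, 49.0 and 35.5 CPM in stretch and at 93.7, 205 and 35.7 CPM in doxorubicin. Its log2 fold change was -1.39 (SE 0.50), and 0.25 against doxorubicin library 3 alone, which lay within the stretch range. DRAM1, a lysosomal membrane protein that promotes autophagy (chromosome 12, 101877351 to 102012130), stood at 69.7, 100.0, 95.4 and 83.2 CPM in stretch and at 96.9, 177 and 57.3 CPM in doxorubicin, and so lay on both sides of stretch. PHLDA3, which blocks the kinase AKT, averaged 44.5 ± 8.46 CPM in stretch and 59.9 ± 14.7 CPM in doxorubicin (SD, n = 4 and n = 3). NINJ1, which ruptures the membrane of dying cells, averaged 54.3 ± 12.9 CPM in stretch and 48.4 ± 20.6 CPM in doxorubicin. PERP, a membrane protein of desmosomes, was weak, at 3.42 to 5.07 CPM in stretch and 1.59 to 4.32 CPM in doxorubicin. AEN, a nuclease of apoptosis whose window is shown above, was at 0, 1, 0 and 1 counts in stretch and 1, 0 and 0 counts in doxorubicin, at or under 3 counts in every library, and was not tested.

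Genes of redox balance and energy metabolism were also divided, with 3 of 7 on the stretch side (4 of 7 with upper-quartile factors, 6 of 7 with library totals alone) and no call. Below the median of all genes were 4 of 7 with each of these scalings. With doxorubicin libraries 1 and 2 left out, 5 of 7 lay on the stretch side. C12orf5, known as TIGAR, a phosphatase that turns glycolysis toward the pentose phosphate pathway (chromosome 12, 4307763 to 4354593), stood at 11.5, 10.7, 11.2 and 12.7 CPM in stretch and at 6.35, 1.73 and 5.48 CPM in doxorubicin. The stretch libraries lay close together and above each doxorubicin library. The log2 fold change was 1.23 (SE 0.40, adjusted p of 0.109 by edgeR), with 86 to 118 counts in stretch against 16, 2 and 29 in doxorubicin libraries 1 to 3, and it was 1.09 against doxorubicin library 3 alone. The value of doxorubicin library 2 lay under the limit of detection. CES2, a carboxylesterase (chromosome 16, 66934444 to 66945096), had the lowest log2 fold change, -1.75 (SE 0.55, adjusted p of 0.103 by edgeR). It stood at 10.5, 25.9, 24.5 and 28.4 CPM in stretch and at 63.9, 144 and 22.3 CPM in doxorubicin, and against doxorubicin library 3 alone the log2 fold change was 0.020. The sestrins, which restrain growth signalling through mTORC1 and limit oxidative damage, lay on different sides. SESN1 stood at 16.6, 20.2, 28.3 and 20.01 CPM in stretch and at 14.3, 6.92 and 17.4 CPM in doxorubicin, with a log2 fold change of 0.67 (SE 0.37). SESN2 stood at 7.48, 11.4, 13.4 and 9.90 CPM in stretch and at 24.2, 13.0 and 10.02 CPM in doxorubicin, with -0.57 (SE 0.39). Doxorubicin library 3 lay within the stretch range in both genes, and in SESN2 library 2 did as well. Whether the 2 differences differ from each other was not tested. CMBL, a hydrolase (chromosome 5, 10275875 to 10308026), stood at 33.4, 34.9, 42.7 and 36.0 CPM in stretch and at 34.9, 44.96 and 25.1 CPM in doxorubicin, with groups that overlapped. TP53I3, an oxidoreductase also called PIG3, averaged 21.1 ± 1.67 CPM in stretch and 21.7 ± 11.3 CPM in doxorubicin, and FDXR, the reductase that feeds electrons to mitochondrial P450 enzymes, averaged 25.6 ± 8.85 CPM in stretch and 28.999 ± 5.24 CPM in doxorubicin (SD, n = 4 and n = 3).

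The remaining genes, GDF15, ZMAT3 and TP53I11, lay on the stretch side, also relative to the median of all genes with each scaling tried. GDF15, a secreted stress cytokine of the TGF-beta family (chromosome 19, 18374731 to 18389176), stood at 167, 159.6, 115 and 162 CPM in stretch and at 104, 54.5 and 52.4 CPM in doxorubicin. Stretch library 6 and doxorubicin library 1 were the nearest values, and the groups did not overlap. Among the 33 genes GDF15 had the lowest adjusted p, 0.0985 by edgeR, with a log2 fold change of 1.10 (SE 0.34). It was 1.54 against doxorubicin library 3 alone and between 0.63 and 1.86 over all alternatives. TP53I11, a membrane protein induced by p53, stood at 7.08, 10.4, 8.11 and 11.2 CPM in stretch and at 5.56, 6.05 and 6.62 CPM in doxorubicin, and the groups lay next to each other without overlap (log2 fold change 0.59, SE 0.35). ZMAT3, an RNA-binding regulator of splicing (chromosome 3, 179017223 to 179072279), stood at 6.94, 14.3, 14.8 and 18.3 CPM in stretch and at 15.5, 7.78 and 10.6 CPM in doxorubicin, with groups that overlapped.

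The doxorubicin libraries differed among themselves. The highest of the 7 libraries was doxorubicin library 2 for 9 genes (ASCC3, CCNG1, CES2, CMBL, CYFIP2, DDB2, DRAM1, PLK2 and PPM1D) and doxorubicin library 1 for 6 (BTG2, RRM2B, SESN2, SPATA18, TP53I3 and XPC), which is 28.1% and 18.8% of the 32 genes against 28.4% and 12.5% of all tested genes, so the share for library 2 was that of the background. Doxorubicin library 3 was highest for MDM2, PHLDA3 and POLH. It was lowest for 8 genes (25.0%, against 13.9% of all genes) and lay within the stretch range for 12 (37.5%, against 43.3% of all genes). The summed level of the 33 genes was 1289, 1366, 1330.2 and 1281 CPM in stretch libraries 4 to 7, and 1636, 2004 and 1175 CPM in doxorubicin libraries 1 to 3. On this sum doxorubicin library 3 lay below all stretch libraries and the other doxorubicin libraries above them. The SD of log2 CPM was larger in doxorubicin for 22 of the 32 genes (68.8%, against 83.8% of all genes). The order of EIF4A2's share, library 2 above library 1 above library 3, was also that of the sums, and its part in them was not tested.

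**Figure D3:**
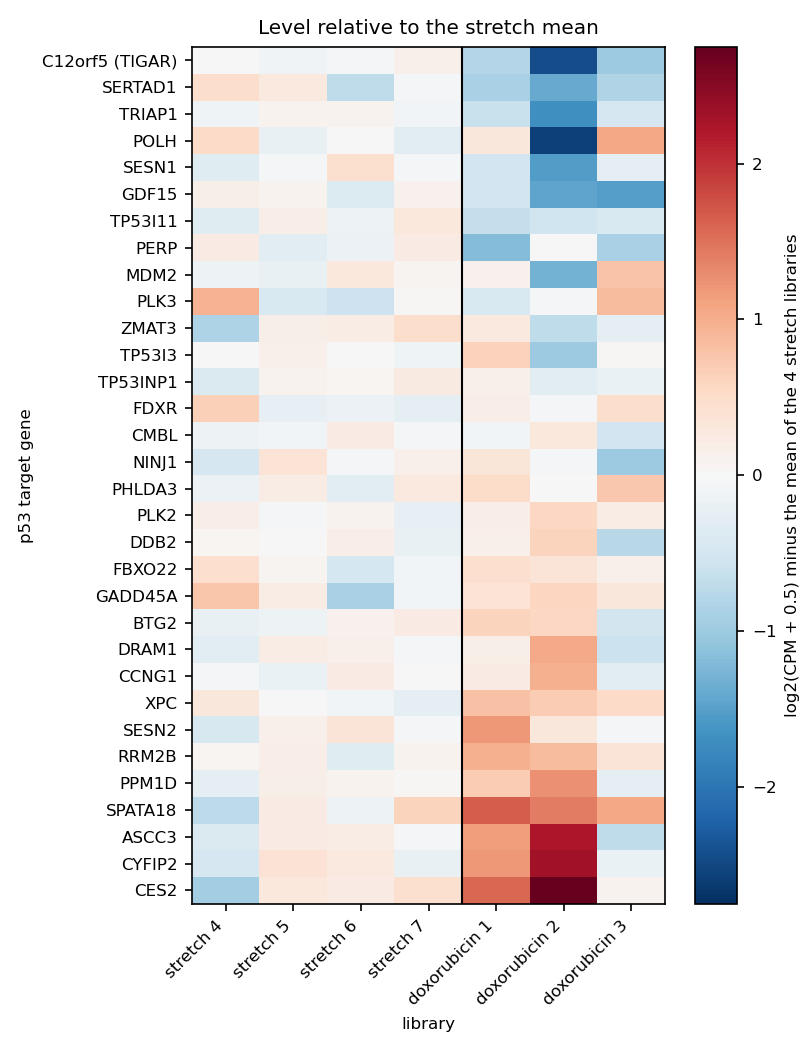
log2(CPM + 0.5) of the 32 tested p53 target genes minus the mean of the 4 stretch libraries, 1 column per library, sorted by the mean of doxorubicin libraries 1 and 2. In doxorubicin library 2 the values run from far below stretch, as for C12orf5 (TIGAR) at 1.73 CPM, to far above it, as for CES2 at 144 CPM. The C12orf5 value is 2 counts and under the limit of detection of that library, 2.59 CPM. Doxorubicin library 3 is paler for ASCC3, CYFIP2 and CES2.

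Calls among the genes moved with the same libraries and with the tool. Without doxorubicin library 3, 9 of 32 passed, when 32.2% of all genes did: C12orf5, GDF15 and TRIAP1 toward stretch, and ASCC3, CES2, CYFIP2, PPM1D, RRM2B and SPATA18 toward doxorubicin. DESeq2 called C12orf5, GDF15 and CES2, with adjusted p of 0.0295, 0.0146 and 0.0338 and log2 fold changes of 1.25, 1.14 and -1.77. limma-voom with library quality weights called 14 of 32, when 47.0% of all genes passed. Against doxorubicin library 3 alone, 0 passed by edgeR (0.802% of all genes), and 8 of 32 had an unadjusted p under 0.05, against 16.8% of all genes. The spread in that fit comes from the stretch libraries alone and the lone doxorubicin library is assumed to vary like them, so its p-values say nothing of the variation between doxorubicin libraries. The share of p53 targets called was 9.38% by DESeq2, against 10% of all genes. It was 28.1% against 32.2% without doxorubicin library 3, and 43.8% against 47.0% with quality weights. These shares lay slightly below those of all genes, and whether they differ was not tested. At an unadjusted p under 0.05 by edgeR with all libraries, the p53 targets lay above all genes, at 31.2% against 23.2%.

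**Figure D4:**
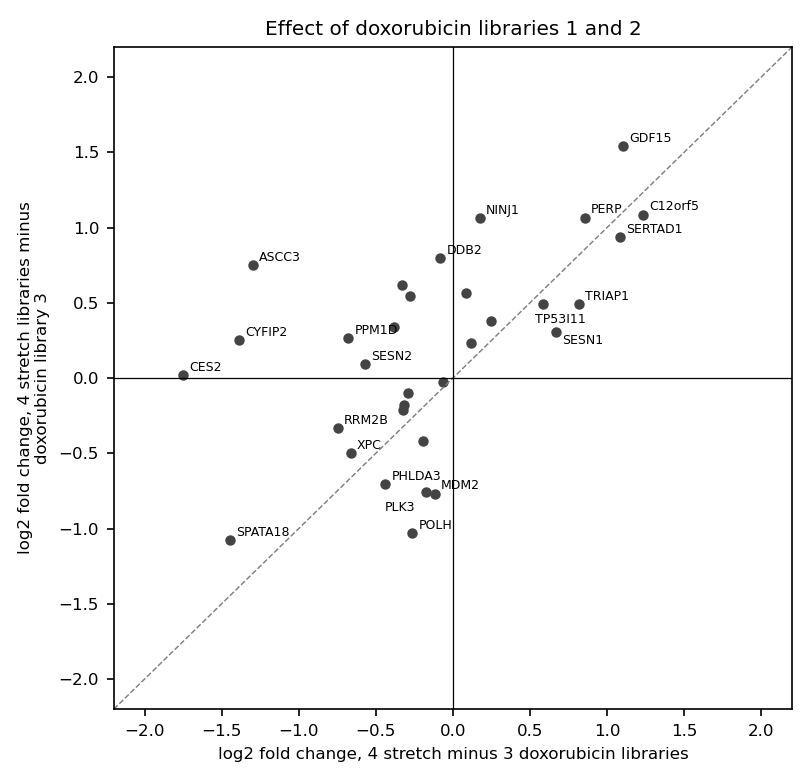
log2 fold change of each tested p53 target gene against all 3 doxorubicin libraries (x axis) and against doxorubicin library 3 alone (y axis). The stretch libraries and doxorubicin library 3 enter both axes. ASCC3, CYFIP2 and CES2 lie far left and above 0, at -1.30, -1.39 and -1.75 on the x axis, while SPATA18, C12orf5 and GDF15 lie on the same side of 0 on both axes.

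Other genes of the pathway were read from lists chosen by role. Of 20 tested genes in the list of the pathway's regulators, which holds partners and upstream kinases, 0 passed by edgeR, where 2.32% of all genes did. An unadjusted p under 0.05 was reached by 5 (25%, against 23.2% of all genes). These were MDM4, NPM1 and RPL5 toward stretch, and HIPK2 and CREBBP toward doxorubicin. HIPK2 stood at 23.6 to 38.2 CPM in stretch and at 63.9, 229 and 22.7 CPM in doxorubicin, where library 3 lay below the stretch range. The median over the list was 0.23, with 12 on the stretch side and 8 (40%, against 48.8% of all genes) on the doxorubicin side. MDM4, the MDM2 relative that holds p53 inactive, stood at 49.4, 50.2, 45.8 and 59.1 CPM in stretch and at 28.6, 13.8 and 42.5 CPM in doxorubicin (log2 fold change 0.81, SE 0.36, adjusted p of 0.209 by edgeR). Its groups did not overlap, and against doxorubicin library 3 alone the difference was 0.28.

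Of 16 tested p53 targets with a part in apoptosis, 0 passed by edgeR, with a median of 0.19. An unadjusted p under 0.05 was reached by 2 (12.5%, against 23.2% of all genes). Those were FAS, a death receptor, at 28.4, 37.3, 28.8 and 34.3 CPM in stretch and at 87.8, 60.5 and 41.4 CPM in doxorubicin (log2 fold change -0.97, SE 0.32), and TRAF4, a signalling adaptor, with -1.44 (SE 0.42). TRAF4 stood at 43.8 to 66.0 CPM in stretch and at 126, 220 and 57.5 CPM in doxorubicin. Its doxorubicin library 3 thus lay within the stretch range. The groups of FAS did not overlap. BAX, which opens the mitochondrial outer membrane, stood at 390.0, 207, 188 and 171 CPM in stretch and at 123, 58.8 and 274 CPM in doxorubicin, and its log2 fold change of 0.65 (SE 0.50) became -0.18 against doxorubicin library 3 alone. BBC3, the BH3 protein PUMA, stood at 3.20 to 7.06 CPM in stretch and at 1.32 to 3.97 CPM in doxorubicin (log2 fold change 1.11, SE 0.55).

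Of 60 other tested p53 targets, 3 passed, all higher in doxorubicin, where 1.97% of all genes passed in that direction. The median over the list was -0.30, and 37 lay on the doxorubicin side (61.7%, against 48.8% of all genes). TRIM22, which is also induced by interferon, had the clearest difference, at 13.5, 7.49, 8.65 and 7.42 CPM in stretch and 83.8, 55.3 and 98.9 CPM in doxorubicin (log2 fold change -3.11, SE 0.34, adjusted p of 0.00269 by edgeR). It passed whichever library was left out, and was -3.40 against doxorubicin library 3 alone. ALOX5, the first enzyme of leukotriene synthesis, stood at 0.401, 1.07, 0.216 and 0.430 CPM in stretch, which is 2 to 10 counts, and at 12.3, 6.05 and 4.91 CPM in doxorubicin (log2 fold change -3.81, adjusted p of 0.0147 by edgeR). It did not pass without doxorubicin library 1 or stretch library 4, 6 or 7, with adjusted p of 0.0598 to 0.0974. PLXNB2, a semaphorin receptor, stood at 41.8, 55.2, 56.8 and 50.5 CPM in stretch and at 229.5, 588 and 91.3 CPM in doxorubicin (log2 fold change -2.56, adjusted p of 0.0336 by edgeR). Its log2 fold change was -1.64 without doxorubicin library 2 and -0.82 against doxorubicin library 3 alone, and it did not pass without doxorubicin library 1 or any of the stretch libraries (adjusted p of 0.0912 to 0.152). With library totals alone none of these 3 passed, at log2 fold changes of -2.47, -3.05 and -1.44. CDKN1A, the cell cycle inhibitor p21 and the target most used to read p53 activity, stood at 271, 266, 219 and 221 CPM in stretch and at 898, 919 and 292 CPM in doxorubicin. Doxorubicin libraries 1 and 2 were far above stretch and library 3 just above it, so that the log2 fold change was -1.52 (SE 0.39, adjusted p of 0.0651 by edgeR) with all libraries and -0.24 against library 3 alone. DESeq2 gave CDKN1A an adjusted p of 0.00856.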

How the data were processed

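Per the labels' protocols, Trizol was used for the RNA and an Ion AmpliSeq kit for the libraries. The kit amplifies 1 short piece per transcript by PCR with primers for each gene and adds no molecular identifiers. Reads are thus not independent molecules, limits of detection cover counting error only, and levels were compared within a gene, and between genes only to choose the most abundant. The authors deposited 1 table of estimated counts per gene, as whole numbers taken to be rounded and left unscaled. The tools were fastp 0.20.1 and Salmon 1.9 with build GRCh38, per the submitters' processing notes, which give no role or order here. The annotation release is not given in the sources used here. Of 14647 rows, those sharing 1 of 64 symbols were summed and Metazoa_SRP, at most 0.00861% of a library, was left out.

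Low genes were removed by filterByExpr. Counts were tested with TMM factors in edgeR 4.0.16 (R 4.3.3; glmQLFit with robust estimation, glmQLFTest), stretch minus doxorubicin, adjusted by Benjamini-Hochberg over 11230 genes with a threshold of 0.05. Each standard error was computed from the fold change and its F statistic, as |log2 fold change| divided by √F. CPM were computed on library sizes multiplied by their TMM factors. limma 3.58.1 and DESeq2 1.42.0 served as alternatives. The test was checked on simulated counts (8 false calls among 139). Those counts were drawn with the same spread in both groups, as the test assumes. In the data the SD of log2 CPM was larger in doxorubicin for 83.8% of all genes. The check therefore does not cover an unequal spread. No 2 libraries agreed within sampling noise (chi-square per degree of freedom of at least 7.07 over 21 pairs), and each was counted once. Coordinates are those of GENCODE release 29 on GRCh38.

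The genes, lists and alternatives were chosen with earlier results of these data known. Values per library were given for genes whose groups do not overlap and for the 2 of each role with the highest mean CPM over the 7 libraries. MDM2, DDB2, POLH, CYFIP2, SESN1, SESN2, PLK3, HIPK2 and TRAF4 were added after their values were seen. A gene of the regulators' list is not reported here.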

Additional observations from a re-analysis of the deposited data

Results flagged for a closer look

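Among the 4 stretch libraries, 3 of 39 genes looked at (the 33 p53 targets and 6 other pathway genes) had 1 library set apart from the rest by Dixon's test, where chance gives about 1 in 20. FDXR stood at 38.8 CPM in stretch library 4, against 20.4 to 22.1 CPM in the other stretch libraries. BAX stood at 390.0 CPM in stretch library 4, against 171 to 207 CPM in the others. GDF15 was low in stretch library 6, at 115 CPM, against 159.6 to 167 CPM in the others. Their causes were not tested.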

How the results depend on the processing

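No paired analysis was possible because the groups share no replicate number. Over 16 alternatives and 32 genes, 433 values of single genes kept their direction and side of the threshold, 26 kept their direction and passed, and 46 changed sign. Against 261 called genes with all libraries, the count was 13 with library totals alone, 143 with a mean of at least 10 CPM, 1315 by DESeq2, 5276 by limma-voom with library quality weights, 99 without doxorubicin libraries 1 and 2, and 12 to 3736 with single libraries left out. Called p53 targets were 3 by DESeq2, 14 with quality weights and 0 to 9 with single libraries left out. Genes on the doxorubicin side were 4 with library totals alone, 12 without doxorubicin libraries 1 and 2, and 18 to 21 with single libraries left out. Genes whose groups did not overlap were 13 with library totals alone, 5 (of 25 kept) with a mean of at least 10 CPM, 19 without doxorubicin libraries 1 and 2, and 8 to 14 with single libraries left out. The share of all genes was read only with all libraries and TMM factors, at 21.4%. These counts therefore cannot be set against all genes, and no result about the p53 targets is drawn from them. The count of 19 rests on doxorubicin library 3 alone, where any gene outside the stretch range counts as not overlapping. With the CPM of all libraries, library 3 lay within that range for 37.5% of the 32 genes and 43.3% of all genes. The rise to 19 is therefore no sign of a clearer separation of the p53 targets. The median was 0.51 with library totals alone, 0.26 without doxorubicin libraries 1 and 2, and -0.30 to -0.14 with single libraries left out.

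Single genes changed sign as follows, in log2 fold changes. With library totals alone, MDM2 was 0.38, PPM1D 0.26, CCNG1 0.54, FBXO22 0.47, BTG2 0.58, GADD45A 0.42, PLK2 0.47, PLK3 0.44, DDB2 0.84, XPC 0.10, POLH 0.21, RRM2B 0.050, PHLDA3 0.20, DRAM1 0.64, SESN2 0.21, FDXR 0.48 and TP53I3 0.59, where the median of all genes was 0.71. Without doxorubicin libraries 1 and 2, PPM1D was 0.27, CCNG1 0.34, BTG2 0.54, DDB2 0.80, ASCC3 0.75, DRAM1 0.62, CYFIP2 0.25, SESN2 0.094, CES2 0.020 and BAX -0.18. With quality weights, TP53INP1 was -0.019, PLK3 0.042, NINJ1 -0.092 and ZMAT3 -0.0076. By limma-voom MDM2 was 0.0013 and DDB2 0.042. Without a filter DDB2 was 0.022 and TP53I3 0.019, and with upper-quartile factors 0.0033 and 0.0011. With single libraries left out, MDM2 lay between -0.49 and 0.42, CCNG1 between -0.61 and 0.038, PLK3 between -0.62 and 0.44, DDB2 between -0.35 and 0.26, POLH between -0.72 and 0.45, DRAM1 between -0.62 and 0.19, NINJ1 between -0.11 and 0.51, TP53I3 between -0.35 and 0.35, and CMBL between -0.077 and 0.31. Beyond the number of samples or genes that an alternative left, the cause was not tested. In doxorubicin library 2 a level of 2.59 CPM is the limit of detection, which limits POLH and C12orf5 there.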
